A study of Homo sapiens with 12 samples.

Results

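The response of HCT116 cells to depletion of PRKDC was followed across 9496 genes, of 20046 with a probe on the array. They are the genes of the 14877 probes, of 47322, that had a detection p-value below 0.05 on all 3 arrays of at least 1 of the HCT116 groups. HCT116 is a human colorectal carcinoma cell line. It was transfected at 20 nM with siPRKDC, a small interfering RNA (siRNA) directed at PRKDC, or with the control siRNA siNeg, and total RNA was taken after 48 h, with 3 samples in each group. The cells were grown in DMEM with fetal bovine serum, both groups had been through a transfection, and the labels do not say how many siRNA sequences were used. Effects of losing PRKDC and other effects of the siRNA cannot be told apart in this design. The TC32 Ewing sarcoma line, given the same siRNAs at the same dose and time and also with 3 samples in each group, makes up the rest of the 12 samples and serves here only as a comparison for HCT116. Whether the 3 samples of a group came from separate cultures is not stated, so each p-value is set against a variation among samples that could be technical only.

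PRKDC encodes DNA-PKcs, the catalytic subunit of the DNA-dependent protein kinase. The Ku heterodimer, made of the XRCC5 and XRCC6 products, binds broken DNA ends and recruits DNA-PKcs, and the ends are then processed and sealed by a ligase complex that contains LIG4. This is non-homologous end joining, which works throughout the cell cycle, whereas homologous recombination copies a sister chromatid and is confined to S and G2 phases. DNA-PKcs belongs to the same kinase family as ATM and ATR.

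Of the kept probes, 12129 were annotated to 1 gene, and each of the 9496 genes was read by its brightest probe. Values below are log2 normalized intensities, and a change is the mean of the siPRKDC samples minus the mean of the siNeg samples on that scale. A gene was called when its limma p-value, adjusted by the Benjamini-Hochberg method over all kept probes, was below 0.05. On this rule 934 genes (9.84%) were higher with siPRKDC and 976 (10.3%) were lower, and 41 (0.432%) also differed at least 2-fold, 18 up and 23 down. Counts of list members called below are to be read against the shares of 9.84% and 10.3%. The lists were written with earlier results of these data known, so these counts describe the data and are not independent support. The median size of a called change was 0.42. The split of called genes was 48.9% higher on the quantile-normalized values and 32.3% higher when the arrays were scaled to equal medians. Over all kept probes, including 2748 with no single gene, 2706 (18.2%) were called.

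The arrays were alike in probes detected, while their highest intensity before normalization was 6193.9 to 6324.6 with siNeg and 5341.3 to 5757.6 with siPRKDC. Between 17101 and 18153 probes were above background on each array, or 36.1% to 38.4%, and the lowest and the highest count both came from siPRKDC samples. Correlations between arrays were 0.992 to 0.994 within a group and 0.982 to 0.983 between the groups. The colorectal label was checked against 18 epithelial and colon markers, of which 9 passed the filter, among them CDX2, EPCAM, CDH1, KRT18, KRT19 and KRT20. VIL1, CDX1, CDH17, CEACAM5 and LGALS4, markers of differentiated colon epithelium, did not pass it. Of 14 Ewing sarcoma and neural markers 3 were measured, of 11 fibroblast markers 3, and of 12 blood cell markers CD68 alone. None of these 7 was called, with 3 Ewing sarcoma and neural markers between -0.03 and 0.16 and CD68 at 0.28.

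PRKDC itself fell, which checks the sample labels. Its brightest probe read 7.39, 7.53 and 7.16 in the siNeg samples and 4.50, 4.55 and 4.85 in the siPRKDC samples. The 3 siPRKDC values lay far below every siNeg value, close to the level at which a probe is no longer detected. The change was -2.72 (SE 0.12, limma adjusted p = 5.18e-10), a 6.6-fold fall. Without background correction it was -1.45, and over the mean of the 3 PRKDC probes it was -1.46. The dimmer probes changed by -0.80 and -0.86, and the last of these was detected on no siPRKDC array, which makes its fall at least 1.66-fold.

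No partner of PRKDC in end joining was called. Of 11 measured genes of this pathway PRKDC alone passed the test, and the median change of the list was 0.04, against -7e-04 for all genes tested. XRCC5, which encodes the Ku80 subunit, read 6.90, 6.85 and 7.15 with siNeg and 7.34, 7.01 and 7.16 with siPRKDC, so the groups overlapped (change 0.21, adjusted p = 0.222). The end-joining ligase gene LIG4 changed by 0.28 (adjusted p = 0.108), at a level that only 1 siNeg array detected. Of 17 kinases related to PRKDC, their assembly factors and checkpoint genes, 15 had a lower mean with siPRKDC and ATM and MDC1 were called. ATM, the kinase that signals double-strand breaks, changed by -0.36 (adjusted p = 0.034), and MDC1, an adaptor at such breaks, also by -0.36 (adjusted p = 0.0147). The other ATM probe changed by -0.07 (adjusted p = 0.801), and over the mean of its probes ATM was not called (-0.21, adjusted p = 0.231). Both calls also rested on single samples. That of ATM was lost without any 1 of the siNeg samples or siPRKDC replicate 1 (adjusted p 0.0671 to 0.154), and that of MDC1 without siNeg replicate 2 (0.06) or siPRKDC replicate 2 (0.0605).

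**Figure D1:**
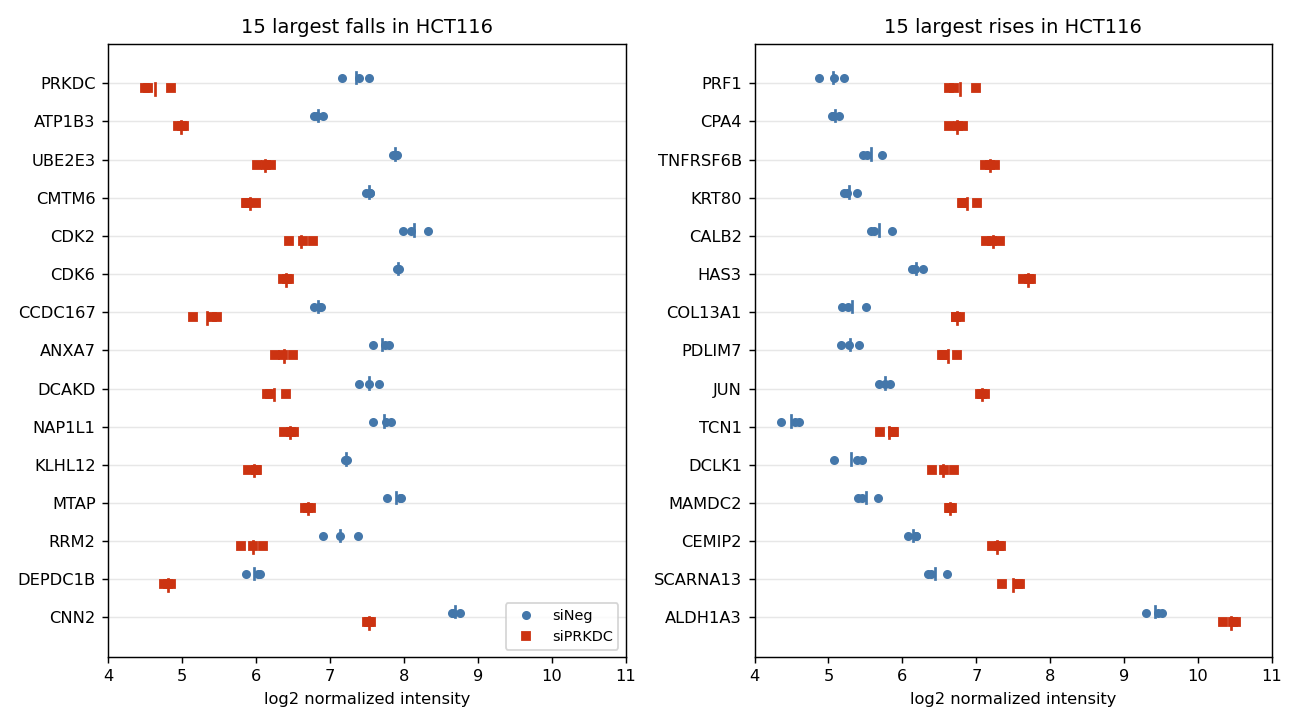
Log2 normalized intensity of the 15 called genes that fell most and the 15 that rose most in HCT116, with 1 point per sample (3 siNeg, 3 siPRKDC) and a vertical bar at each group mean. The siNeg and siPRKDC points of each of these genes are separate by the rule that chose them, and PRKDC and TCN1 reach the lowest values.

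The largest changes are shown in the plot of the 15 strongest falls and rises. After PRKDC, the fall was largest for ATP1B3, which encodes a beta subunit of the sodium-potassium pump. It read 6.82, 6.78 and 6.91 with siNeg and 5.023, 4.944 and 4.997 with siPRKDC, a 3.6-fold fall (change -1.85, SE 0.10, adjusted p = 3.5e-09). The ubiquitin-conjugating enzyme gene UBE2E3 went from 7.89, 7.85 and 7.91 to 6.02, 6.13 and 6.20 (change -1.77, adjusted p = 6.58e-09). Of its other 2 probes 1 fell by 1.55 and 1 rose by 0.49, so its probes did not all move one way. CMTM6, whose product keeps PD-L1 at the cell surface, went from 7.54, 7.55 and 7.49 to 5.997, 5.86 and 5.88 (change -1.61, adjusted p = 1.38e-08). In all 3 genes the samples of a group lay within 0.2 of each other, and the groups were far apart.

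The remaining large falls covered several functions. MTAP, the enzyme that salvages methylthioadenosine, fell by 1.19 and the annexin gene ANXA7 by 1.33. KLHL12, a substrate adaptor of a cullin ubiquitin ligase, fell by 1.24 on its brightest probe and by 0.69 on another. CNN2, an actin-binding calponin, fell by 1.16 (0.73 on its other probe). CCDC167 (-1.49), DCAKD (-1.28) and DEPDC1B (-1.17) also fell at least 2-fold. CDK2, CDK6, RRM2 and NAP1L1 are described with the cell cycle genes below.

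CMTM6 was not alone in its family. Of 6 measured genes of the CMTM family and of PD-L1 and its relatives, 4 fell, CMTM6 included (66.7%, against 10.3% of all genes), and none rose. This list was written with earlier results of these data known, so its share is a description only. The median change was -0.52. CMTM3 read 7.10, 6.89 and 7.08 with siNeg and 6.26, 6.26 and 6.15 with siPRKDC (change -0.80, adjusted p = 3.49e-05). CMTM7 fell by 0.49, and its other 2 probes fell by 0.47 and 0.61. CD276, the B7-H3 surface protein, fell by 0.55 (adjusted p = 0.00212). CD274, the PD-L1 gene, did not pass the filter, so its level was not read. All 4 calls held when any 1 sample was left out.

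Cell cycle genes made up the broadest group of falls. The 7 lists covered 218 genes, of which 193 were measured. Of these, 90 (46.6%) were called lower with siPRKDC and 2 (1.04%) higher, against 10.3% and 9.84% of all genes. The median change was -0.29, and the mean log2 level of the 193 genes was 7.08, 7.07 and 7.10 in the siNeg samples and 6.77, 6.77 and 6.75 in the siPRKDC samples. Of the 193, 127 had all 3 siPRKDC values below all 3 siNeg values, where 37.9% of all genes tested did not overlap in either direction. In RNA from whole cultures, fewer cells in a phase and less RNA per cell cannot be told apart. The 90 calls became 75 to 82 when 1 sample was left out and 110 with median scaling, and 65 of the 90 genes were called in each fit that left out 1 sample.

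**Figure D2:**
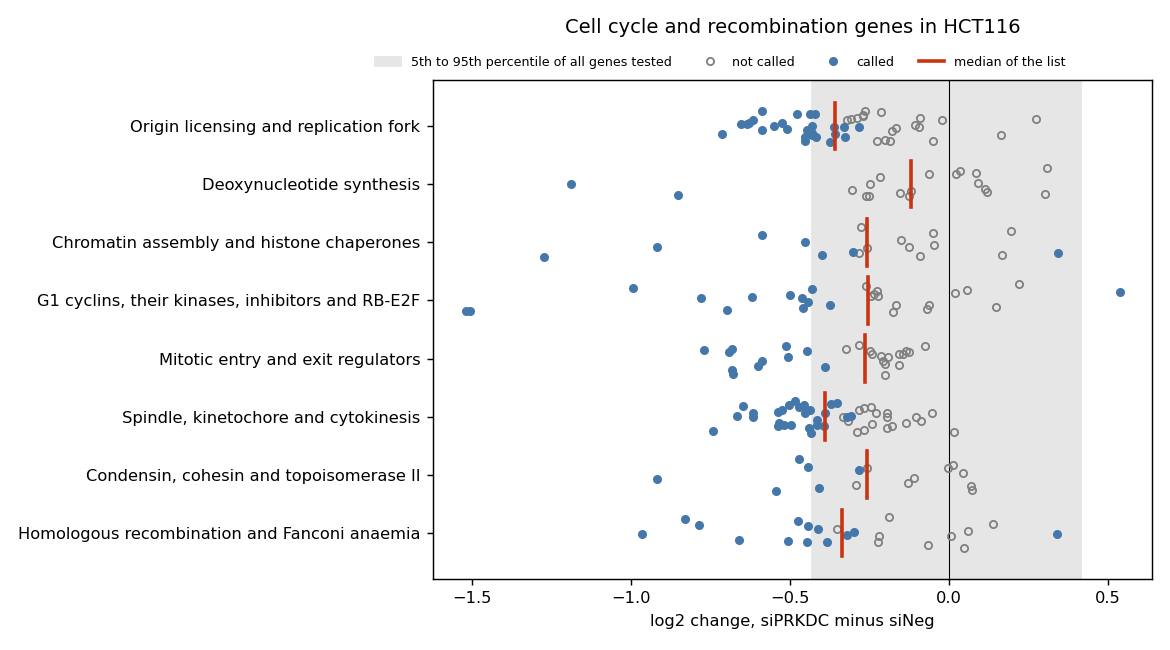
Log2 change (siPRKDC minus siNeg) of each measured gene in 7 cell cycle lists and the recombination list, with filled points for called genes, open points for genes not called, a red bar at the list median and a grey band from the 5th to the 95th percentile of all genes tested (-0.43 to 0.42). Points lie mostly left of 0 in every list, and the medians of replication (-0.36) and spindle genes (-0.39) are the lowest.

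Genes that control entry into S phase included the largest of these falls. CDK2, the kinase partner of cyclins E and A, read 8.10, 7.98 and 8.32 with siNeg and 6.44, 6.77 and 6.63 with siPRKDC. CDK6, a partner of the D-type cyclins, read 7.94, 7.91 and 7.91 with siNeg and 6.42, 6.45 and 6.36 with siPRKDC. Neither gene had overlapping groups, and the folds were 2.87 for CDK2 (change -1.52, adjusted p = 1.46e-07) and 2.84 for CDK6 (change -1.51, adjusted p = 2.17e-08). A further CDK2 probe fell by 1.28. Of 26 measured G1 regulators 12 fell. E2F2, an activating E2F factor, read 7.33, 7.27 and 7.18 with siNeg and 6.27, 6.20 and 6.33 with siPRKDC (change -0.99), and E2F7, a repressor of the same family, fell by 0.78. SKP2, which marks CDK inhibitors for degradation and was chosen after its values were seen, fell by 0.70 (adjusted p = 0.000219). CCND1, the cyclin D1 gene, was the one member that rose, from 10.26, 10.14 and 10.20 to 10.78, 10.73 and 10.70 (change 0.54, adjusted p = 0.000827), and it too was chosen after its values were seen. RB1 changed by 0.02 (adjusted p = 0.91), and the CDK inhibitor gene CDKN1A by -0.25 (adjusted p = 0.102), neither of them called and both likewise named afterwards.

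Replication genes fell without exception among those called. Of 45 measured genes of origin licensing and the replication fork, 26 fell and none rose. CDC45, part of the replicative helicase, read 7.38, 7.46 and 7.54 with siNeg and 6.75, 6.88 and 6.85 with siPRKDC (change -0.63, adjusted p = 2.62e-04). The helicase subunit genes MCM5 and MCM7 fell by 0.71 and 0.62, and RFC4, a subunit of the clamp loader, by 0.59 (0.82 on its other probe). Of the 2 other MCM7 probes 1 fell by 0.68 and 1 changed by -0.28 (adjusted p = 0.0564). When samples were left out singly, 17 of the 26 calls held throughout. Of 19 measured genes of deoxynucleotide synthesis 2 fell and none rose, and the share of 10.5% was close to the 10.3% of all genes. RRM2, the small subunit of ribonucleotide reductase, read 7.14, 6.90 and 7.38 with siNeg and 5.96, 5.80 and 6.10 with siPRKDC, a 2.28-fold fall (adjusted p = 5.41e-06). TK1, the thymidine kinase of S phase, fell 1.81-fold from 8.85, 8.86 and 8.89 to 8.13, 7.99 and 7.93. For both genes the groups were well separated, although the RRM2 values spread more widely within each group.

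Histone chaperone genes, which package newly copied DNA, showed 6 falls and 1 rise among 17. NAP1L1, a chaperone of H2A and H2B, went from 7.83, 7.59 and 7.76 to 6.47, 6.38 and 6.51 (change -1.27, adjusted p = 2.43e-07). ASF1B and CHAF1B, which hand H3 and H4 to new DNA, fell by 0.92 and 0.59, and HJURP, the chaperone of the centromeric histone, by 0.45. The one rise was SET (0.34, adjusted p = 0.0316), named after its values were seen. It was no longer called without siNeg replicate 2 (0.141), siPRKDC replicate 1 (0.11) or siPRKDC replicate 3 (0.089), nor with median scaling (0.204).

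Genes of mitosis fell too. Of 26 regulators of mitotic entry and exit 11 fell, none rose, and all 26 had a lower mean with siPRKDC. CDK1, the kinase that drives mitotic entry, read 7.83, 8.01 and 7.93 with siNeg and 6.96, 7.26 and 7.24 with siPRKDC (change -0.77), but its other probe changed by only -0.12 (adjusted p = 0.452). CCNF fell by 0.69, PBK by 0.68 and FBXO5, an inhibitor of the anaphase-promoting complex, by 0.68. Of 45 spindle, kinetochore and cytokinesis genes 27 fell and none rose, 18 of them in each fit that left out a sample. KIF2C, a microtubule-depolymerising kinesin, read 6.89, 6.99 and 6.97 with siNeg and 6.29, 6.25 and 6.31 with siPRKDC (change -0.66, adjusted p = 1.31e-04). BIRC5 (survivin) changed by -0.74, with -0.23 on its other probe (adjusted p = 0.123), SPC24 of the kinetochore by -0.65 and NUSAP1 by -0.62. Condensin and cohesin genes had 6 falls among 15, with CDCA5 (sororin), which holds sister chromatids together, at -0.92 and the condensin subunit NCAPG at -0.54.

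Homologous recombination and Fanconi anaemia genes fell with the cell cycle genes, with 12 falls and 1 rise among 22 and a median change of -0.34. RMI2, a subunit of the BLM dissolution complex, read 6.09, 6.31 and 6.29 with siNeg and 5.17, 5.32 and 5.31 with siPRKDC (change -0.96, adjusted p = 7.24e-06). BLM, the helicase of that complex, read 5.86, 5.70 and 5.81 with siNeg and 4.72, 5.18 and 5.11 with siPRKDC (change -0.79). EXO1, a nuclease of end resection, fell by 0.83 and FANCG by 0.66. Of the 12 falls, 8 held without each sample. The rise was in NBN, a subunit of the MRE11 complex (0.34, adjusted p = 0.023), and was lost without siNeg replicate 2 (0.0939), siPRKDC replicate 2 (0.0736) or siPRKDC replicate 3 (0.0624).

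Of 25 mismatch and excision repair genes 5 fell and 1 rose. UNG, the uracil-DNA glycosylase, read 8.49, 8.39 and 8.55 with siNeg and 7.30, 7.34 and 7.39 with siPRKDC, a 2.2-fold fall (adjusted p = 5.31e-07). Its other probes changed by -0.34 (adjusted p = 0.024) and -0.21 (adjusted p = 0.135), so its probes differed in the size of the change. The thymine-DNA glycosylase gene TDG fell by 0.56, and the mismatch recognition gene MSH6 by 0.58. The rise was POLB (0.30, adjusted p = 0.0453), named afterwards, which was lost without any 1 of 5 of the 6 samples (adjusted p 0.0944 to 0.162).

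The promoters of the genes that fell were read for the elements through which cell cycle genes are known to be controlled. Genes of S phase are typically bound by E2F factors, and those of G2 and mitosis by the DREAM complex through cell cycle homology region (CHR) elements, often together with NF-Y at a CCAAT box. The searched letters were TTTCCCGC, TTTGGCGC, TTTCGCGC or TTTGCCGC for E2F, TTTGAA or TTCGAA for CHR, CCAAT for NF-Y and TGANTCA for AP-1, on either strand of the 250 bases before each start of the RefSeq promoter table (GRCh38.p14). A promoter was found for 7754 of the 9496 genes tested. Of the called replication genes, 24 of 26 had a promoter, and 45.8% held an E2F match and 8.33% a CHR match. Of the called mitotic and spindle genes, 31 of 38 had one, and 16.1% held an E2F match and 54.8% a CHR match. Over all called cell cycle genes with a promoter, 79 of 90, the shares were 25.3% for E2F and 35.4% for CHR, against 14.1% and 17.6% of cell cycle genes that were not called and 5.86% and 13.5% of all tested genes. Of the 15 largest falls, which include CDK2, CDK6, NAP1L1 and RRM2, 13 had a promoter, and none held an E2F or CHR match. CCAAT matches were in 54.2% of the replication genes, 80.6% of the mitotic and spindle genes and 42.6% of all tested genes. Over all 27305 genes of the table the shares were 3.4% for E2F, 17.2% for CHR, 37% for CCAAT and 8.06% for AP-1.

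**Figure D3:**
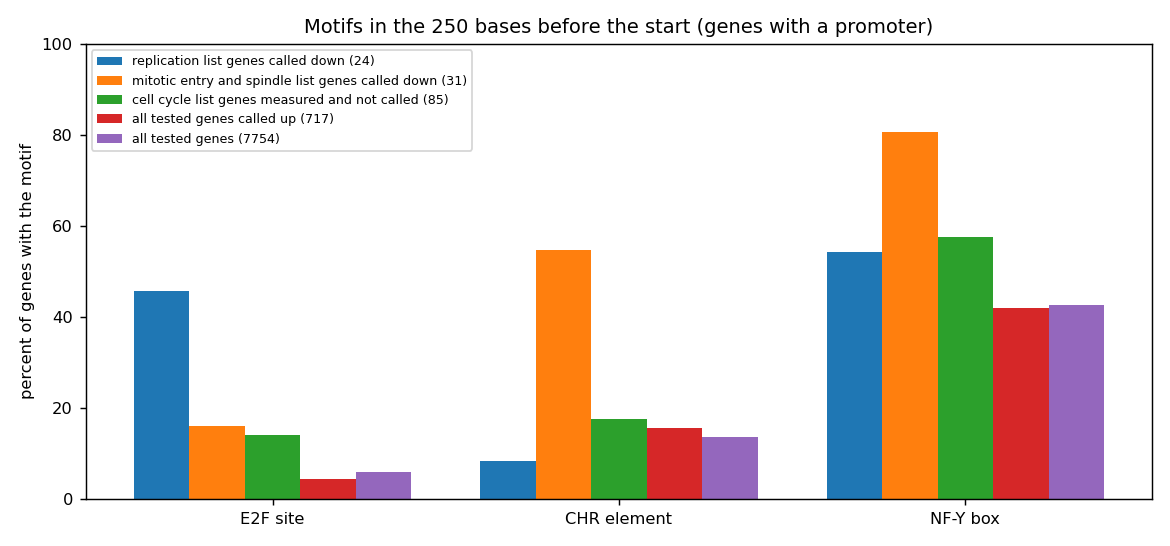
Percent of genes with at least 1 match to each motif in the 250 bases before a transcription start, for 5 groups of genes with the number that had a promoter in parentheses. E2F matches are most frequent in the called replication genes (45.8%), CHR and NF-Y (CCAAT) matches in the called mitotic and spindle genes (54.8% and 80.6%).

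Of the genes that fell most in these lists, 4 show how differently the elements are arranged. The windows are given 5' to 3' on the strand of the gene, ending at the base before the start, with motif matches in capitals (ATTGG is CCAAT on the other strand). They lie at chr2:10122489-10122738 (plus strand, RRM2), chr1:23531234-23531483 (minus strand, E2F2), chr11:65084041-65084290 (minus strand, CDCA5) and chr19:14136590-14136839 (minus strand, ASF1B).
RRM2: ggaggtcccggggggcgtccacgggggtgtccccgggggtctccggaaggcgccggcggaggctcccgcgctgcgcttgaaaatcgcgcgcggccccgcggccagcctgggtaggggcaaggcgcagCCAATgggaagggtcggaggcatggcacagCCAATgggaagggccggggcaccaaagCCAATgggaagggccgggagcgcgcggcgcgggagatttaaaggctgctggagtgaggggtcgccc
E2F2: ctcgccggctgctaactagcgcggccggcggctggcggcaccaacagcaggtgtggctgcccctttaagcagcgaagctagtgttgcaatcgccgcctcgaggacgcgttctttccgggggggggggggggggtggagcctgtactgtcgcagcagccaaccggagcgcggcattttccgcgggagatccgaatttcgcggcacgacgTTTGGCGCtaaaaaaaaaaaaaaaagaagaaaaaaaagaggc
CDCA5: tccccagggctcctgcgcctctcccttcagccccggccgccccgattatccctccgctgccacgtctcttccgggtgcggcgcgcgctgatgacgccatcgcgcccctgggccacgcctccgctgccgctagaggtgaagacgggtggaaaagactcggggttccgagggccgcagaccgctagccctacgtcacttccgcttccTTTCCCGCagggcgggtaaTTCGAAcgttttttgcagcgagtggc
ASF1B: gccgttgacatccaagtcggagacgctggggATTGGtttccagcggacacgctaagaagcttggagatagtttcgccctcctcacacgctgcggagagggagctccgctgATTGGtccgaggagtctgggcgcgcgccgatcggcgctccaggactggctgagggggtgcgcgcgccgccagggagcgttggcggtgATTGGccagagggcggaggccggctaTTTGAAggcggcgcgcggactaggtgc
The RRM2 window has 3 CCAAT boxes, starting 123, 93 and 66 bases before the start, and no match to the searched E2F or CHR letters. E2F2 has 1 E2F match 42 bases before the start. CDCA5 has an E2F match at 45 bases and a CHR match at 26 bases before the start. ASF1B has a CHR match at 27 bases, and CCAAT boxes on the other strand at 53, 140 and 219 bases. A match is a description of the letters and was not tested for binding.

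Stress pathways had calls in both directions, to be read against the 9.84% of all genes called higher and 10.3% called lower. Of 23 targets of p53, the damage-activated factor, 4 rose and 2 fell (2 and 3 with median scaling), and the median change was 0.003. GDF15, a secreted stress factor, rose from 9.073, 8.999 and 8.922 to 9.80, 9.71 and 9.59 (change 0.70, adjusted p = 1.27e-04). CCNG1, another target, went from 8.30, 8.06 and 8.21 to 7.55, 7.27 and 7.53 (change -0.74), and TP53INP1 fell by 0.55. The other rises were PMAIP1 (0.55) and, named after their values were seen, TIGAR (0.34) and TP53I3 (0.32). PMAIP1 lost its call when siNeg replicate 3 was left out (adjusted p = 0.0583) and when siPRKDC replicate 2 was (0.0554), TIGAR without any 1 of 3 samples (0.0679 to 0.121) and TP53I3 without any 1 of 5 (0.0583 to 0.159). Of 23 genes of the ATF4 and amino acid response 5 rose and 1 fell (median 0.18), or 3 and 1 with median scaling, and 4 rises and no fall held without each sample. PSAT1, an enzyme of serine synthesis, rose by 0.71 and ATF3 by 0.52, while SLC7A5 rose by 0.43 and lost its call with median scaling (adjusted p = 0.0507). Of 25 interferon and MHC class I genes 3 were called higher and 3 lower, or 1 and 3 with median scaling, and 1 rise and 2 falls held without each sample, with the immunoproteasome subunit gene PSMB10 at 0.72 and IFIT1 at -0.62. Cholesterol synthesis had 1 call in 17 and ribosome biogenesis 2 in 28. The BCL2 family had 4 falls and 1 rise among 16, and 2 falls held without each sample. These were BCL2L1, which encodes BCL-XL and fell by 0.46 (-0.25 on its other probe, adjusted p = 0.105), and BAK1, which fell at least 1.23-fold to a level detected on no siPRKDC array.

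Collagen, laminin and integrin genes rose more often than they fell. Of 21 measured, 9 rose and 1 fell (42.9% and 4.76%, against 9.84% and 10.3% of all genes), and the median change was 0.24. COL13A1, a transmembrane collagen, read 5.51, 5.19 and 5.26 with siNeg and 6.79, 6.72 and 6.72 with siPRKDC, a 2.68-fold rise (adjusted p = 1.07e-07). ITGA2, the alpha-2 integrin chain that binds collagen, read 5.76, 5.80 and 6.10 with siNeg and 6.77, 6.72 and 6.91 with siPRKDC (change 0.91, adjusted p = 2.79e-05). The groups did not overlap for either gene. THBS1 (thrombospondin 1) rose by 0.71, and the integrin chains ITGA3 and ITGB4, chosen after their values were seen, rose by 0.67 and 0.64. LAMC1, the laminin gamma-1 chain, was the fall, from 7.15, 7.10 and 6.91 to 6.36, 6.31 and 6.15 (change -0.78). Of the 9 rises 7 held without each sample, and 8 were called with median scaling. None of the 3 measured fibroblast markers was called, and their summed normalized intensity was 117 to 125 with siNeg and 126.7 to 138.6 with siPRKDC. Their part in these rises was not tested.

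Keratins and ERBB genes also rose more often than they fell. Of 8 measured keratins 4 rose and none fell (median 0.32). KRT80 read 5.25, 5.39 and 5.21 with siNeg and 7.01, 6.81 and 6.81 with siPRKDC, a 3.02-fold rise (adjusted p = 2.36e-08), and KRT23 rose by 0.82. KRT18 rose by 0.51 on its brightest probe, but another probe changed by -0.07 (adjusted p = 0.705), and the call was lost over the mean of its probes (0.105). Of the 9 measured epithelial and colon markers, which include KRT18 and KRT8 but not KRT80 or KRT23, 3 rose and 1 fell, and their summed normalized intensity was 3304 to 3566 with siNeg and 3971 to 4569 with siPRKDC. The remaining keratin call, KRT8 (0.36), was lost without any 1 of the siNeg samples or siPRKDC replicate 1 (adjusted p 0.0528 to 0.134). Of 9 measured genes in the ERBB receptor and ligand list 4 rose and none fell (median 0.32), or 3 and none with median scaling. EGFR read 5.001, 4.98 and 4.98 with siNeg and 5.52, 5.53 and 5.41 with siPRKDC (change 0.50, adjusted p = 0.00136), and its ligand gene TGFA rose by 0.53 (0.62 on its other probe). NRG1, a ligand of other ERBB receptors, was detected on no siNeg array and rose at least 1.22-fold, and its call was lost without background correction (adjusted p = 0.052). ERRFI1, which is neither a receptor nor a ligand, rose by 0.40 (adjusted p = 0.0128). The ERRFI1 call was lost with median scaling and without siNeg replicate 2 or siPRKDC replicate 3.

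Hyaluronan genes stood out by size. Hyaluronan is a sugar polymer of the matrix, made by synthases at the plasma membrane. HAS3, a synthase, read 6.16, 6.13 and 6.28 with siNeg and 7.71, 7.74 and 7.64 with siPRKDC (change 1.505, adjusted p = 2.37e-08), with 0.30 on its other probe (adjusted p = 0.0359). CEMIP2, a surface protein linked to hyaluronan breakdown, read 6.19, 6.08 and 6.18 with siNeg and 7.33, 7.31 and 7.21 with siPRKDC (change 1.14), and CEMIP rose by 0.96. HAS3, CEMIP2 and CEMIP were thus higher with siPRKDC, while the receptor gene CD44 changed by -0.01 (adjusted p = 0.957), named after its value was seen. The median change of the list was 0.05. Of 9 measured genes, 3 rose and HYAL3 alone fell (-0.37, adjusted p = 0.0361), a call that was lost without any 1 of 5 of the 6 samples (adjusted p 0.0627 to 0.164).

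Actin and focal adhesion genes had 9 rises and 2 falls among 30, or 5 and 3 with median scaling, where the list's median went from 0.06 to -0.007. PDLIM7, an actin-associated adaptor, rose from 5.41, 5.17 and 5.28 to 6.56, 6.74 and 6.54 (change 1.33), but its other probe changed by 0.23 (adjusted p = 0.173). TPM1, a tropomyosin, rose by 0.61 (0.74 on its other probe) and the matricellular gene CCN1 by 0.59. At cell junctions CDH1, which encodes E-cadherin, rose from 7.23, 7.03 and 7.12 to 7.80, 7.74 and 7.73 (change 0.63, adjusted p = 2.7e-04), and the desmosomal cadherin DSC2 rose by 0.76. The tight junction gene CLDN12 fell by 0.69 and DSG2 by 0.41, while the other DSG2 probe changed by -0.14 (adjusted p = 0.405). Junction genes thus did not move one way. Of 18, 3 were up and 2 down (16.7% and 11.1%, against 9.84% and 10.3% of all genes).

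Transcription factors of the AP-1 family split. JUN read 5.83, 5.69 and 5.76 with siNeg and 7.05, 7.07 and 7.11 with siPRKDC, a 2.5-fold rise (adjusted p = 8.22e-08), and JUND rose by 0.47. FOS, the usual partner of JUN, read 5.21, 4.98 and 5.19 with siNeg and 4.72, 4.67 and 4.64 with siPRKDC (change -0.45, adjusted p = 0.0046). EGR1, an immediate early factor like FOS, went from 7.71, 7.62 and 7.61 to 6.94, 6.72 and 6.77 (change -0.84, adjusted p = 2.48e-05), and the MAPK phosphatase gene DUSP5 rose by 0.79. An AP-1 match was in the promoter window of 8.23% of all genes called higher, 3.5% of those called lower and 5.96% of all genes tested. The ID genes, inhibitors of helix-loop-helix factors and targets of BMP signalling, fell together: ID3 by 0.93 (adjusted p = 7.92e-06), ID2 by 0.60 and ID1 by 0.64, while SMAD6, an inhibitor of BMP signalling, rose by 0.45. The other ID1 probe changed by -0.25 (adjusted p = 0.102). Of 12 measured genes of the ID and BMP-TGF-beta list 2 rose and 4 fell (16.7% and 33.3%, against 9.84% and 10.3% of all genes). Of these calls, 1 rise and 3 falls held without each sample. BMP signalling itself was not tested. ID3 read 8.64, 8.79 and 8.85 with siNeg and 7.89, 7.79 and 7.82 with siPRKDC. The transcription factor gene MYB fell by 0.80.

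**Figure D4:**
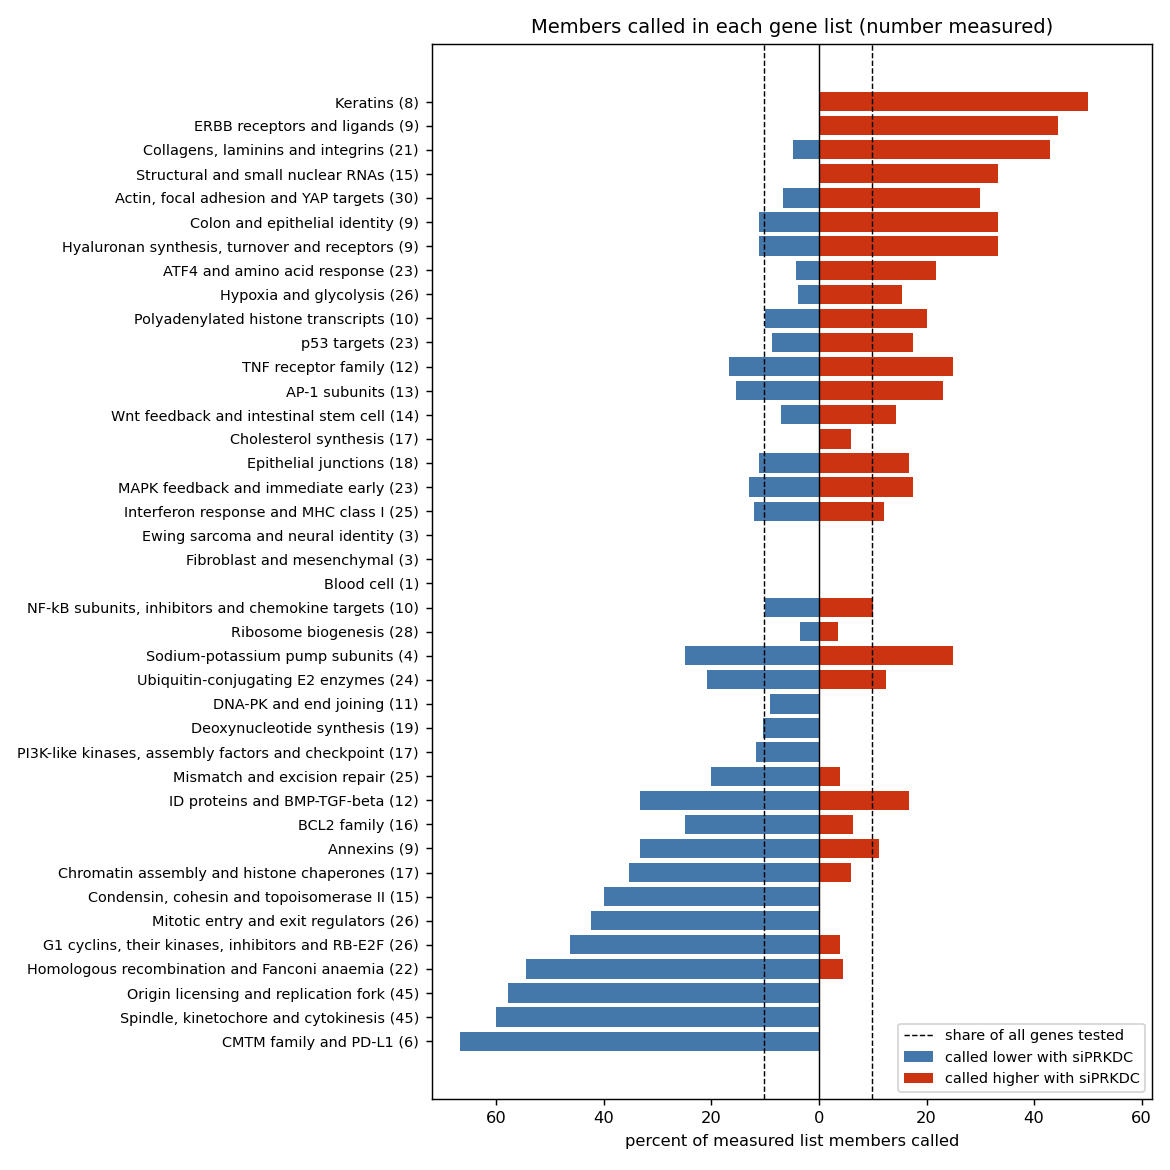
Percent of the measured members of each gene list called higher (red, right) and lower (blue, left) with siPRKDC in HCT116, with the number measured in parentheses and dashed lines at the shares of all genes tested (10.3% lower, 9.84% higher). Lists of replication, spindle and recombination genes reach far to the left and keratin, ERBB and integrin lists to the right, and lists with few measured genes carry large steps.

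Other strong rises fell outside these families. PRF1 encodes perforin, the pore-forming protein of cytotoxic lymphocytes. It read 5.21, 4.88 and 5.08 with siNeg and 6.99, 6.70 and 6.63 with siPRKDC, a 3.28-fold rise (adjusted p = 4.77e-08). Of the 12 blood cell markers, 10 did not pass the filter, PTPRC, CD3D, NKG7 and GZMB among them. CALB2, the calcium-binding calretinin, rose from 5.62, 5.86 and 5.57 to 7.31, 7.22 and 7.14, and CPA4, a carboxypeptidase, from 5.04, 5.15 and 5.06 to 6.82, 6.63 and 6.76. TNFRSF6B, a secreted decoy receptor for FAS ligand, read 5.73, 5.52 and 5.47 with siNeg and 7.11, 7.18 and 7.25 with siPRKDC (change 1.61, adjusted p = 2.36e-08), and TNFRSF10A, a TRAIL receptor, rose by 0.66. TCN1, which binds vitamin B12, rose by 1.32 from a low level, which 2 siNeg arrays detected. DCLK1, a doublecortin-like kinase, rose by 1.24 (0.51 on its other probe) and MAMDC2 by 1.14. ALDH1A3, a retinaldehyde dehydrogenase, was bright in both groups and rose 2.04-fold from 9.45, 9.51 and 9.30 to 10.34, 10.51 and 10.48.

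The small RNA SCARNA13, a guide RNA of Cajal bodies, rose from 6.35, 6.60 and 6.38 to 7.60, 7.56 and 7.34 (change 1.06, adjusted p = 4.82e-06). Of 15 structural and small nuclear RNAs 5 (33.3%, against 9.84% of all genes) were called higher and none lower (median 0.25), or 3 with median scaling. The 5 were RNA28SN5 (0.69), RNA5S9 (0.57), RNU1-3 (0.42), RNVU1-18 (0.40) and RNVU1-7 (0.29), the last named after its value was seen. The summed normalized intensity of the 15 was 4602 to 5012 in the siNeg samples and 4916 to 5473 in the siPRKDC samples, so the sums overlapped. Their mean log2 level did not, at 6.47, 6.40 and 6.51 with siNeg and 6.64, 6.73 and 6.76 with siPRKDC. RNA28SN5 alone was called in each fit that left out a sample, though not when dim probes were kept (adjusted p = 0.123). Without siNeg replicate 2 the adjusted p was 0.068 for RNA5S9 and 0.06 for RNU1-3, and without siPRKDC replicate 2 it was 0.063 and 0.0613. That of RNVU1-18 was 0.0645 without siPRKDC replicate 3, and RNVU1-7 lost its call without any 1 of the 6 samples (0.0595 to 0.164). The part of these RNAs in the other changes was not tested.

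**Figure D5:**
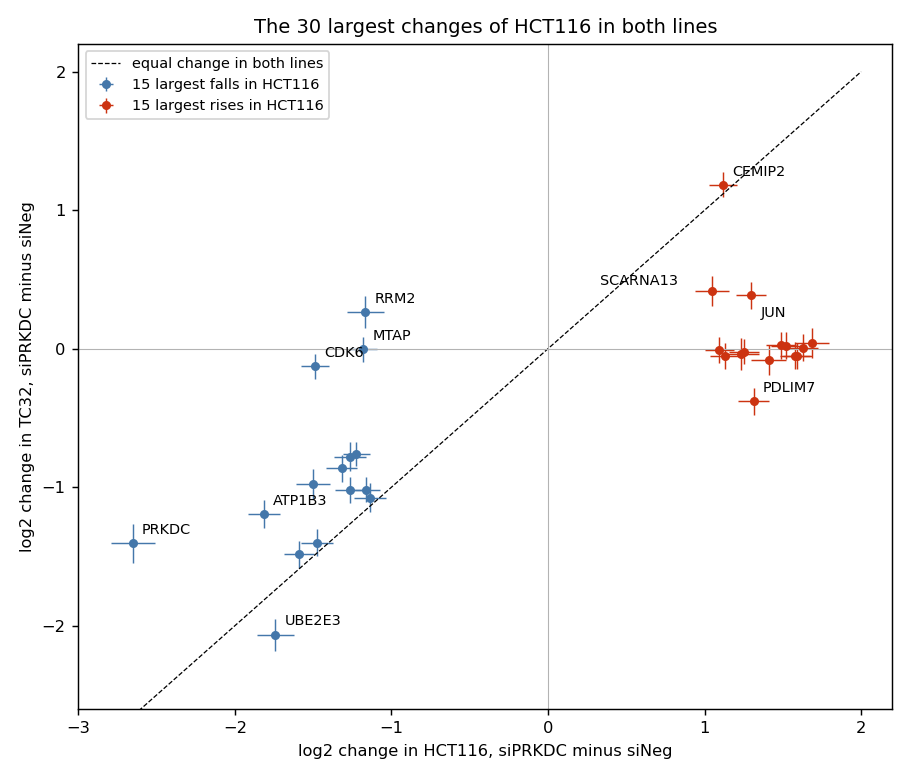
Log2 change (siPRKDC minus siNeg) of the 30 largest changes of HCT116 in HCT116 (horizontal axis) and TC32 (vertical axis), fitted over all 12 arrays, with bars of 1 SE and a dashed line of equal change. Most falls lie below 0 in both lines, whereas most rises lie near 0 in TC32.

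The same siRNA in TC32 was used to ask which of these changes differed between the lines, by testing the difference between the effects in a fit of all 12 arrays. In that fit the effects of 30.1% of 10386 genes differed between the lines. The largest falls and rises were chosen by their change on the same HCT116 arrays, which favours a called difference. The largest falls were mostly shared. Both lines were given the same siRNA, so a shared fall does not separate loss of PRKDC from other effects of the siRNA. Of the 15, 14 had the same sign in TC32, 12 were called there too, and the medians were -1.32 in HCT116 and -1.02 in TC32. PRKDC, the target of the siRNA, is among the 15 and the 12. On its brightest probe it changed by -2.65 in HCT116 and -1.41 in TC32 (difference -1.25, adjusted p = 7e-05). Over the mean of its probes the difference was not called. Where the fall of PRKDC was unequal, its part in the other differences cannot be told apart from that of the line. The share of all genes called in TC32 was not worked out, so counts of genes called in TC32 have no background beside them. ATP1B3 read 6.04, 6.03 and 6.24 with siNeg in TC32 and 4.72, 5.10 and 4.92 with siPRKDC (change -1.19), and UBE2E3 (-2.06) and CMTM6 (-1.49) fell there too. CNN2 changed by -1.16 in HCT116 and -1.02 in TC32, and the difference of -0.14 was not called (adjusted p = 0.427). That 12 falls were called in both lines does not show that they were equal, and 9 of the 15 differences were called.

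Many cell cycle genes differed between the lines. RRM2 changed by -1.17 in HCT116 and by 0.26 in TC32, where it read 6.38, 6.56 and 6.59 with siNeg and 6.89, 6.73 and 6.70 with siPRKDC. The difference was -1.43 (SE 0.16, adjusted p = 1.45e-06). CDK2 fell in both, with -1.501 in HCT116 and -0.98 in TC32 (difference -0.53, adjusted p = 0.014). CDK6 was detected on 1 TC32 array and MTAP on none, so their differences of -1.36 and -1.18 compare a fall with a level near background. Of the 193 cell cycle genes, 55 were called lower and 36 higher in TC32, with a median of -0.08, against 88 and 3 in HCT116 with a median of -0.28 in the same fit. The change was called lower in HCT116 than in TC32 for 65 of them and higher for 8, where the shares among all genes were 15.5% and 14.6%.

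Among the 15 largest rises 3 were called in the same direction in TC32 and 14 differences were called. CEMIP2 was the exception, rising by 1.12 in HCT116 and 1.18 in TC32. JUN rose by 1.30 and 0.38, and SCARNA13 by 1.05 and 0.42. PDLIM7 went opposite ways, with 1.31 in HCT116 and -0.38 in TC32, where it read 6.41, 6.40 and 6.25 with siNeg and 5.98, 6.05 and 5.89 with siPRKDC. DCLK1 was detected on all 3 TC32 arrays of each group and changed there by -0.04, against 1.23 in HCT116 (difference 1.27, adjusted p = 7.74e-06). Of the remaining rises, PRF1, CPA4, TNFRSF6B, KRT80, CALB2, TCN1, MAMDC2 and ALDH1A3 were detected on no TC32 array of either group. HAS3 was detected on 1 of 6, a siPRKDC array, and COL13A1 on 1 of 6, a siNeg array. A change in a gene that gives no signal cannot be read. The differences of these genes show only that none rose to a level detected on all 3 siPRKDC arrays of TC32.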

How the data were processed

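Total RNA of 6 HCT116 and 6 TC32 samples was read on Illumina HumanHT-12 expression arrays. Per the file headers, the authors deposited 1 bead intensity and 1 detection p-value per probe and array, and the values show neither background correction nor normalization. The submitters' processing notes name GenomeStudio, R 3.0.2 and lumi without their roles. The authors also deposited log2 values, which the values themselves show to be quantile normalized within each line, and these served as an alternative.

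Here, in R 4.3.3 with limma 3.58.1, the background of the 6 HCT116 arrays was estimated from the detection p-values (normexp, offset 16), the arrays were quantile normalized together and log2 transformed, and probes with a detection p-value below 0.05 on all 3 arrays of either group were kept. All adjusted p-values are from limma (lmFit and eBayes, 2-sided, Benjamini-Hochberg over all kept probes). With 3 samples a group, an exact permutation test of a single gene cannot go below 0.1. The comparison with TC32 was an interaction contrast over 12 arrays normalized together. Of the probes on the array, 30113 were annotated to 1 gene, 8 to several and 17201 to none, and 30074 were matched to RefSeq. The code was tested on simulated data.

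The text names PRKDC, the 15 largest rises and falls among called genes whose groups do not overlap, and up to 4 called members of each of 40 gene lists with the smallest adjusted p (for lists with under 2 calls, up to 2 members with the smallest p). Genes outside this rule are marked as chosen after their values were seen. The genes and lists were chosen with earlier results of these data known. "At least" folds set a group against the lowest signal that counts as detected. The alternatives were other background, scaling and filter settings, other fits, the mean of all probes of a gene, and leaving out each sample.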

Additional observations from a re-analysis of the deposited data

Results flagged for a closer look

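The effect of siPRKDC differed between HCT116 and TC32, by an interaction contrast in limma over 12 arrays, for 23 of the 30 genes that changed most in HCT116. Over all 10386 genes of that fit the share was 30.1%. The 30 genes were chosen by their change on the same HCT116 arrays, which favours a called difference. Values are the log2 effect in HCT116 minus that in TC32. Where a gene was not above background in TC32, the value compares a change with no readable signal, and its size and order carry no meaning beyond that. This holds for MTAP, PRF1, CPA4, TNFRSF6B, KRT80, CALB2, TCN1, MAMDC2 and ALDH1A3, detected on no TC32 array, and for CDK6, HAS3 and COL13A1, detected on 1 of 6. Among the falls the difference was -1.25 for PRKDC itself, -1.43 for RRM2, -1.36 for CDK6, -1.18 for MTAP and -0.62 for ATP1B3. It was smaller for CDK2 (-0.53), DCAKD (-0.49), KLHL12 (-0.47) and ANXA7 (-0.46). The PRKDC difference was -0.33 (adjusted p = 0.0596) over the mean of its probes, that of KLHL12 was -0.27 (0.0679) in the same way, that of DCAKD lost its call without siNeg replicate 3 (0.0539) and that of ANXA7 without siPRKDC replicate 1 (0.0503).

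Among the rises the difference was 1.69 for PDLIM7, 1.65 for TNFRSF6B, 1.64 for PRF1, 1.63 for KRT80 and 1.62 for CPA4. It was 1.499 for CALB2, 1.49 for COL13A1, 1.46 for HAS3, 1.27 for TCN1 and 1.27 for DCLK1. The remaining values were 1.18 for MAMDC2, 1.10 for ALDH1A3, 0.91 for JUN and 0.63 for SCARNA13.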

How the results depend on the processing

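The fall of PRKDC kept its direction and its call under every alternative that gave it a value; it has none with detection p below 0.01 on all 6 arrays. Without background correction, and with the authors' deposited log2 values, 6 and 6 genes in place of 41 differed at least 2-fold. Genes called higher numbered 586 with median scaling (1228 lower), where the median of all genes was -0.0587, and 622 when dim probes were kept (657 lower). The number of cell cycle genes called lower ran from 73 to 110 over all alternatives. Leaving out 1 sample at a time gave 674 to 721 genes higher, 702 to 734 lower, 39 to 49 at least 2-fold, 75 to 82 cell cycle genes lower, and -2.83 to -2.64 for PRKDC. Same-numbered samples did not deviate together (r 0.00041, 0.056 and 0.043), which does not settle whether the numbers mark shared cultures. With a replicate block 1018 genes were higher, 1056 lower, and PRKDC was -2.72. Of 245 called genes named or listed, 154 were called under every alternative, 77 were lost without at least 1 sample, and TAP2 reversed. TAP2 changed by -0.36 (limma adjusted p = 0.0463), by 0.10 with detection p below 0.01 on all 6 arrays, and by -0.44 to 0.19 leaving out 1 sample at a time. CD99, not called, was 0.033, but -0.037 with median scaling and -0.051 to 0.089 leaving out 1 sample. The 23 called differences between lines became 21 to 25. Among differences not called, that of NAP1L1 became 0.023 without background correction and 0.33 over the mean of all kept probes, that of CEMIP2 0.25 (called, 0.00378) without background correction and 0.060 with cyclic loess, that of DEPDC1B 0.13 over the mean of all kept probes, and that of CCDC167 -0.13 to 0.017 leaving out 1 sample. The mean of all kept probes was added for these differences after seeing the data. The causes were not tested. Signal over background and the 3 arrays a group limit the precision.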

Other observations

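The counts in this section are to be read against the 9.84% of all genes called higher and the 10.3% called lower. Among 24 measured ubiquitin-conjugating enzymes 5 fell (20.8%), UBE2E3 included, and 3 rose (12.5%), or 6 and 2 with median scaling. Of these, 3 of the falls and 2 of the rises were called in each fit that left out a sample. UBE2G2, an enzyme of the degradation of endoplasmic reticulum proteins, rose from 7.31, 7.18 and 7.20 to 8.14, 7.94 and 8.06 (change 0.82, limma adjusted p = 2.79e-05), UBE2L6, which conjugates ISG15, rose by 0.65, and UBE2C, the partner of the anaphase-promoting complex, fell by 0.51. On their other probes UBE2L6 changed by 0.17 (limma adjusted p = 0.301) and UBE2C by -0.21 (0.181). Of 9 annexins 3 fell, ANXA7 included, and 1 rose, and only the falls were called in each fit that left out a sample. ANXA1 went from 10.09, 10.04 and 10.11 to 9.49, 9.18 and 9.21 (change -0.79), and ANXA5 fell by 0.50. Of 4 sodium-potassium pump genes ATP1B3 fell and FXYD5, a regulator of the pump, rose by 0.46.

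Of 26 hypoxia and glycolysis genes 4 rose and 1 fell (2 and 1 with median scaling), and 3 rises and no fall held without each sample. HK2, a hexokinase, was at 0.74 and NDRG1 at 0.71. The other HK2 probe changed by 0.26 (limma adjusted p = 0.153). Of 10 NF-kB genes the chemokine gene CXCL8 rose by 0.90 and the inhibitor gene NFKBIA fell by 0.46. Of 12 TNF receptors 3 were called higher and 2 lower, but 2 rises and no fall held without each sample. Of 14 Wnt and intestinal stem cell genes 2 rose and 1 fell (1 and 3 with median scaling), with PROM1 at 0.46. Of 10 polyadenylated histone transcripts 2 rose and 1 fell (1 and 1 with median scaling), with H2BC12 at 0.61 and H1-10 at -0.59.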
